A study of Mus musculus with 4 samples.

Results

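Cell cycle genes encode the cyclins, cyclin-dependent kinases, replication factors and mitotic proteins that carry a cell through division, and the inhibitors that stop it. A set of 36 such genes, listed by name, was read on the 4 arrays of a study of FoxO6, a forkhead transcription factor. Each gene was read from 1 probe set, the one annotated to that gene alone with the highest mean signal. Of the 36 genes 35 have a named probe set, out of 18193 genes named on the array, and 34 were tested, out of 12569 genes tested. Ccnb1 was not analysed here, and all 4 probe sets of Tyms, the thymidylate synthase gene, lay under the signal floor described below.

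The tissues were mandible with maxilla, and brain, each taken from FoxO6-/- mice and from WT mice, and RNA was hybridised to GeneChip mouse arrays, 1 for each tissue and genotype and 4 in all. In the FoxO6-/- line a LacZ reporter and a neomycin cassette take the place of the FoxO6 coding region, in every cell and on a C57BL/6 background, and the WT mice carry no introduced allele. The labels place all 4 arrays at postnatal day 0, whereas the study's text gives a late embryonic stage for the mandible and maxilla. Each mandible and maxilla array was made from the RNA of 4 animals, the mutant pool is described as holding heterozygous as well as null animals, and whether brain RNA was pooled is not given. No probe set is named Foxo6, so the genotypes were not checked against the deleted gene. A comparison of genotypes within a tissue sets 1 array against 1 array and has no test, and the number of arrays limits the precision of every value.

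A cell enters the cycle when D-type cyclins with CDK4 and CDK6 begin to phosphorylate the RB protein, and cyclin E with CDK2 completes that step and frees E2F factors. E2F then raises genes for DNA replication, while cyclin A, cyclin B and CDK1 drive the later phases into mitosis. CIP/KIP proteins (p21, p27 and p57) bind cyclin-CDK complexes and hold the cell out of the cycle, and in muscle, cartilage and brain they are known as marks of cells that stop dividing to differentiate. Around birth the brain and the jaws both still hold dividing progenitors, next to many cells that have left the cycle. In RNA of whole tissue, fewer cells of a kind and less RNA per cell cannot be told apart.

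Genes of one phase are known to share promoter motifs, and 4 promoters are printed here to show them: those of a replication gene, of the mitotic kinase, of a mitotic exit gene and of the CIP/KIP inhibitor gene Cdkn1a. RefSeq promoter entries of build GRCm38.p6 were found for 29 of the 36 genes, 32 entries in all, and the 250 bases before each start were searched on both strands. Capitals mark the motifs searched. These were an E2F motif (TTTNNCGC with G or C at both N), which binds E2F factors, a CHR motif (TTTGAA or TTTAAA), which binds the DREAM repressor complex, and CCAAT, which binds NF-Y.
Mcm5 chr8:75109259-75109508 (+ strand): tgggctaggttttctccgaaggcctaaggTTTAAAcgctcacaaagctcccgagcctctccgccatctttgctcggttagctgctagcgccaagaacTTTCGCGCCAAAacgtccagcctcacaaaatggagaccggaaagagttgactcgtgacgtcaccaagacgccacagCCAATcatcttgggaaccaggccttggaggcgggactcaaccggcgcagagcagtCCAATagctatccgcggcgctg
Cdk1 chr10:69352913-69353162 (- strand): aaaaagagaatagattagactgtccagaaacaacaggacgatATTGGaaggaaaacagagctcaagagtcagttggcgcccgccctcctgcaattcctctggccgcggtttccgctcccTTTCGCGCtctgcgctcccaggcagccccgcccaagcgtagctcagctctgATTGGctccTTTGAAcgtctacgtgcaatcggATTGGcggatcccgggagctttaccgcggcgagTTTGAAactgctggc
Cdc20 chr4:118437344-118437593 (- strand): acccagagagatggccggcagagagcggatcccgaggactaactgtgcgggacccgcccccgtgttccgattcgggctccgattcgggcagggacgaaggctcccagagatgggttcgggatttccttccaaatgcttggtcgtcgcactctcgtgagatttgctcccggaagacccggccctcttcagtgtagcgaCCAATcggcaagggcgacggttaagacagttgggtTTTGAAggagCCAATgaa
Cdkn1a chr17:29093519-29093768 (+ strand): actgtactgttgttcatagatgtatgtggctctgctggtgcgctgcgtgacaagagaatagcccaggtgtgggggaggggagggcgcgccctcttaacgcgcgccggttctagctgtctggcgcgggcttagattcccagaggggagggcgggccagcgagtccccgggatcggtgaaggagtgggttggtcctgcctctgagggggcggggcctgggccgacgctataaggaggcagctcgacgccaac

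The E2F motif stood in 5 of the 32 promoters (15.6%) against 611 of 32851 promoters of all genes (1.86%). Its holders were Mcm5, Mcm6, Mcm7, Cdk1 and Cdk2, and in Mcm5 and Mcm6 the motif on one strand overlapped that on the other. The CHR motif stood in 14 of the 32 (43.8%) against 25.2% of all promoters, and it was found in 7 of 10 promoters of the mitosis genes, in 3 of 3 of the S to M genes and in 0 of 4 of the D-type cyclin and kinase genes. In Cdk1 and Cdc20 a CHR motif lay close to the start, at positions -15 to -10 and -18 to -13. CCAAT stood in 23 of the 32 (71.9%) against 33.8% of all promoters, with 9 of 10 for mitosis and 8 of 9 for replication, and in Ube2c matches of this motif overlapped each other. The Cdkn1a window printed above held none of the 3 motifs. A match is a run of letters and was not tested as a binding site.

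The arrays were read as MAS5 signals, which the authors scaled so that the trimmed mean of every array is 500.0. A gene was tested where its mean signal reached the floor of 101, the median of all signals, and 48.6% to 51.5% of the probe sets reached it on each array. The FoxO6-/- mandible and maxilla array stood apart in the 3' over 5' signal ratios of control probe sets, at 3.37 for Actb and 1.95 for Gapdh. On the other arrays these ratios were 2.21 to 2.23 and 1.44 to 1.55. Neuron markers fitted the tissue labels, with a median signal of 5605 and 4109 in FoxO6-/- and WT brain against 163 and 406 in mandible and maxilla, and 9 of 10 passed the test. All 4 enamel markers were higher in mandible and maxilla and under the floor on both brain arrays. The brain arrays also carried clear signals of other tissues, with a median of 8432 and 9560 for 6 skeletal muscle markers, 9307 and 10179 for 5 bone markers, 4724 and 2203 for 7 cartilage markers and 2442 and 1645 for 5 stratified epithelium markers, in the same order. Their part in the differences between the tissues was not tested.

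**Figure D1:**
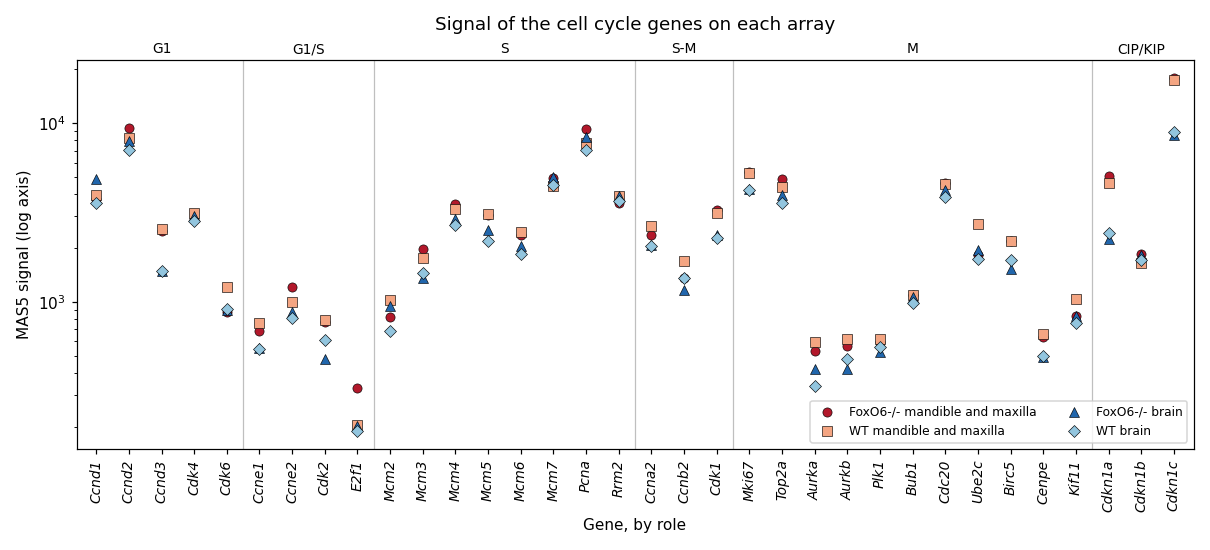
MAS5 signal (log axis) of the 34 cell cycle genes tested, ordered by role, with 1 point for each of the 4 arrays. Signals of one gene lie close together on the 4 arrays for most genes, and the red points lie clearly above the blue ones for Ccnd3, Cdkn1a and Cdkn1c.

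Most cell cycle genes had a somewhat higher signal in mandible and maxilla than in brain, by a small margin, and the CIP/KIP inhibitors Cdkn1a and Cdkn1c were the ones that passed the test. The limma estimate of mandible and maxilla over brain, with genotype as a term, lay above 0 for 30 of the 34 genes (88.2%) against 54.7% of all 12569 genes. The median over the 34 genes was 0.30 on the log2 scale, a fold of 1.23, against 0.05 for all genes, and the estimates ranged from -0.12 to 1.05. Both mandible and maxilla arrays were above both brain arrays for 24 of the 34 genes (70.6%), against 36.4% of all genes. No member had both of its mandible and maxilla arrays below both brain arrays, against 29.1% of all genes. Past an adjusted p of 0.05 by limma with Benjamini-Hochberg adjustment over all genes stood 2 of the 34 (5.88%), both higher in mandible and maxilla, whereas 15.2% of all genes passed, 6.48% in that direction and 8.73% in the other. At an unadjusted p under 0.05 stood 5 of the 34, against 33.7% of all genes. So most members leaned the same way by a small amount, and a smaller share of them than of all genes passed the test. Without the CIP/KIP inhibitors, 28 of 31 genes lay above 0 with a median of 0.29, and 0 passed the test by limma, with 3 at an unadjusted p under 0.05. After median centring of the arrays the median of the 34 genes was 0.18 against -0.07 for all genes, and 28 lay above 0.

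The CIP/KIP inhibitor genes Cdkn1a and Cdkn1c differed most among the cell cycle genes tested, whereas Cdkn1b differed little. Cdkn1a, which encodes p21, a target of p53, had signals of 5043 and 4643 in FoxO6-/- and WT mandible and maxilla and of 2247 and 2418 in FoxO6-/- and WT brain. Both mandible and maxilla arrays were far above both brain arrays, with a log2 difference of 1.05 ± 0.16 (moderated SE, 2 arrays per tissue). The fold was 2.08, with an adjusted p of 0.0373 by limma. This SE, like the others given, draws on the variance over all genes and is not the spread of these arrays alone. A further Cdkn1a probe set gave 1465 and 1480.3 against 644 and 736, a log2 difference of 1.10. Cdkn1c, the imprinted gene of p57, had 17857 and 17469.5 against 8540.1 and 8935, in the same order of arrays. Its log2 difference was 1.02 ± 0.15, a fold of 2.02 with an adjusted p of 0.0356. Cdkn1b, which encodes p27, had 1856 and 1653 against 1831 and 1721, so that its tissues overlapped, with -0.02 ± 0.15 and an adjusted p of 0.941. Both calls were lost with the mean of all probe sets (adjusted p 0.0512 and 0.0527 by limma) and without a floor (0.170 and 0.165). Each was lost in some fits on 3 arrays, which had tissue as the only term, and kept in others. In those fits the log2 difference was 0.99 to 1.11 for Cdkn1a and 0.98 to 1.05 for Cdkn1c. Skeletal muscle markers (6 of 6 with no overlap, log2 differences from 0.58 to 1.83) and stratified epithelium markers (5 of 5, from 1.53 to 2.20) were higher on the same arrays. Bone markers lay above 0 in 5 of 5 cases (median 0.49) and enamel markers in 4 of 4 (6.36). Cartilage markers did so in 2 of 7 cases (-0.17) and neuron markers in 0 of 10 (-4.02). The part of all these markers in the values of Cdkn1a and Cdkn1c was not tested.

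Among the D-type cyclins and their kinases, which respond to growth signals in G1, the 3 cyclins followed different patterns. Ccnd3 had 2499 and 2559 in FoxO6-/- and WT mandible and maxilla and 1478 and 1480.0 in FoxO6-/- and WT brain. The arrays of each tissue were nearly equal, and the log2 difference of 0.77 ± 0.15, a fold of 1.71, missed the threshold with an adjusted p of 0.0568. It passed with a variance trend (0.0141), with a floor at the 75th percentile of signals (0.0263), without the genotype term (0.0232) and with low signals raised to the floor (0.0317). Ccnd1, a target of several growth pathways, had 3769 and 3952 against 4887 and 3583, so that the FoxO6-/- brain array was the highest and the WT brain array the lowest. Its estimate was -0.12 ± 0.20 (adjusted p 0.725), and the other Ccnd1 probe sets gave -0.27 and -0.26. Ccnd2 had 9367 and 8186 against 7895 and 7014 with its brightest probe set, an estimate of 0.23 ± 0.15 (adjusted p 0.346 by limma). All 7 of its probe sets had a log2 difference above 0, the lowest at 0.0033. With their brightest probe sets the kinase genes overlapped between tissues, with 0.05 ± 0.16 for Cdk4 and 0.19 ± 0.19 for Cdk6. Another Cdk4 probe set had 2447 and 2588 against 2060 and 2167, a difference of 0.25 without overlap. A further one gave 0.15 with overlap. The other Cdk6 probe set at or above the floor had 759 and 790 against 653 and 668, or 0.23 without overlap. Over the 5 genes the median was 0.19, with 2 of 5 not overlapping (40.0%, against 36.4% of all genes).

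**Figure D2:**
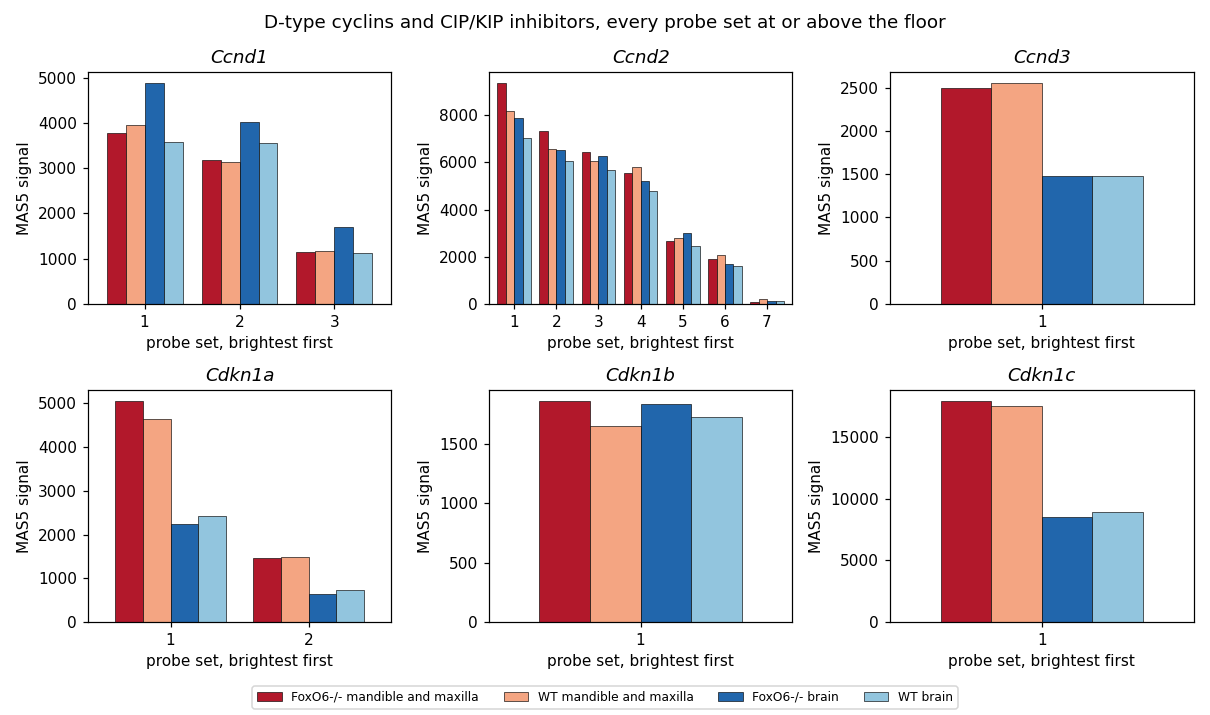
MAS5 signal (linear axis from 0) of each probe set at or above the floor for the 3 D-type cyclins and the 3 CIP/KIP inhibitors, with 1 bar for each array and probe sets ordered by brightness. In both Cdkn1a probe sets and in Cdkn1c and Ccnd3 the mandible and maxilla bars stand well above the brain bars, and in all 3 Ccnd1 probe sets the FoxO6-/- brain bar is the highest.

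The G1/S genes, which carry the cell past its commitment point, were higher in mandible and maxilla in all 4 cases, with a median of 0.41. None of the 4 overlapped between tissues, against 36.4% of all genes without overlap in that direction, and none passed the test. Cdk2, the partner kinase of cyclins E and A, had 768 and 786 in FoxO6-/- and WT mandible and maxilla and 480.4 and 607 in FoxO6-/- and WT brain, a log2 difference of 0.52 ± 0.17 (adjusted p 0.138). The cyclin genes gave nearly the same values, 0.40 ± 0.16 for Ccne1 and 0.38 ± 0.15 for Ccne2. E2f1, an activating E2F, had 330.3 and 206 against 201 and 188, so that its 0.42 ± 0.22 rested mainly on the FoxO6-/- mandible and maxilla array. The other E2f1 probe set gave -0.12.

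Of the 8 replication genes tested, 4 had both mandible and maxilla arrays above both brain arrays and 4 overlapped, against 36.4% of all genes without overlap in that direction, and none passed the test. The MCM genes encode the subunits of the replicative helicase. Among them Mcm3 (0.42 ± 0.16), Mcm5 (0.40 ± 0.16), Mcm6 (0.30 ± 0.15) and Mcm4 (0.29 ± 0.15) had no overlap between tissues, with adjusted p from 0.188 for Mcm3 to 0.273 for Mcm6. Mcm5, whose promoter is printed above, had 3056 and 3113 in FoxO6-/- and WT mandible and maxilla against 2503 and 2189 in FoxO6-/- and WT brain. Mcm7 had 4916 and 4426 against 4964 and 4499, with -0.02 ± 0.15. Mcm2 had 822 and 1026 against 942 and 687 with its brightest probe set. There the tissues overlapped and the estimate of 0.19 ± 0.26 had the widest error of the 34 genes. The other Mcm2 probe set had 950 and 921 against 676 and 690, a difference of 0.45 without overlap. Pcna, the sliding clamp of the polymerases, had 9265 and 7721 against 8356 and 7079.5, with 0.14 ± 0.15. Rrm2, which encodes the regulated subunit of ribonucleotide reductase, had 3549.55 and 3886 against 3892 and 3643, with -0.02 ± 0.16. Over the 8 replication genes tested the median was 0.24. Tyms had 63.0 and 66.8 against 52.4 and 42.4 with its brightest probe set, all under the floor.

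The genes of S to M cyclins and of the mitotic kinase were higher in mandible and maxilla in 3 of 3 cases without overlap. Of all genes 36.4% had no overlap in that direction. Cdk1, the kinase that starts mitosis, had 3258 and 3143 in FoxO6-/- and WT mandible and maxilla and 2367 and 2261 in FoxO6-/- and WT brain. The pairs of arrays were close within each tissue, and the log2 difference was 0.47 ± 0.15, a fold of 1.38, with an adjusted p of 0.133. With a variance trend the adjusted p was 0.0490. Ccna2, whose cyclin works with CDK2 and CDK1, had 0.28 ± 0.15, and Ccnb2, a partner of CDK1, had 0.27 ± 0.15. Neither passed, with adjusted p of 0.302 and 0.294.

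Among the mitosis genes all 11 estimates lay above 0, from 0.10 to 0.57, with a median of 0.30. Of the 11 genes 9 had no overlap between tissues (81.8%, against 36.4% of all genes), and none passed the test. Mki67, which encodes the Ki67 antigen used to stain dividing cells, had 5332 and 5256 in FoxO6-/- and WT mandible and maxilla and 4248 and 4236 in FoxO6-/- and WT brain. The signals were nearly equal within each tissue, and the log2 difference of 0.32 ± 0.15, a fold of 1.25, had an adjusted p of 0.235. Top2a, the topoisomerase that separates replicated chromosomes, gave almost the same value, 0.30 ± 0.15. The spindle kinase gene Aurka had the highest estimate of the group, 0.57 ± 0.20, from 529.6 and 594 against 421 and 338. Birc5, the survivin gene, and Aurkb, whose kinase forms the chromosomal passenger complex with survivin, had 0.45 ± 0.15 and 0.39 ± 0.15. Cenpe, a kinetochore motor gene, had 0.38 ± 0.15. Lower in the order stood Kif11 (spindle motor, 0.22 ± 0.19), Cdc20 (activator of the anaphase-promoting complex, 0.18 ± 0.15), Plk1 (polo-like kinase, 0.17 ± 0.15) and Bub1 (spindle checkpoint kinase, 0.10 ± 0.15). Ube2c, which encodes the ubiquitin-conjugating enzyme of that complex, had 1818 and 2724 against 1947 and 1732, so that its estimate of 0.28 ± 0.25 came from the WT arrays alone. The lowest adjusted p of the 11 was 0.153.

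**Figure D3:**
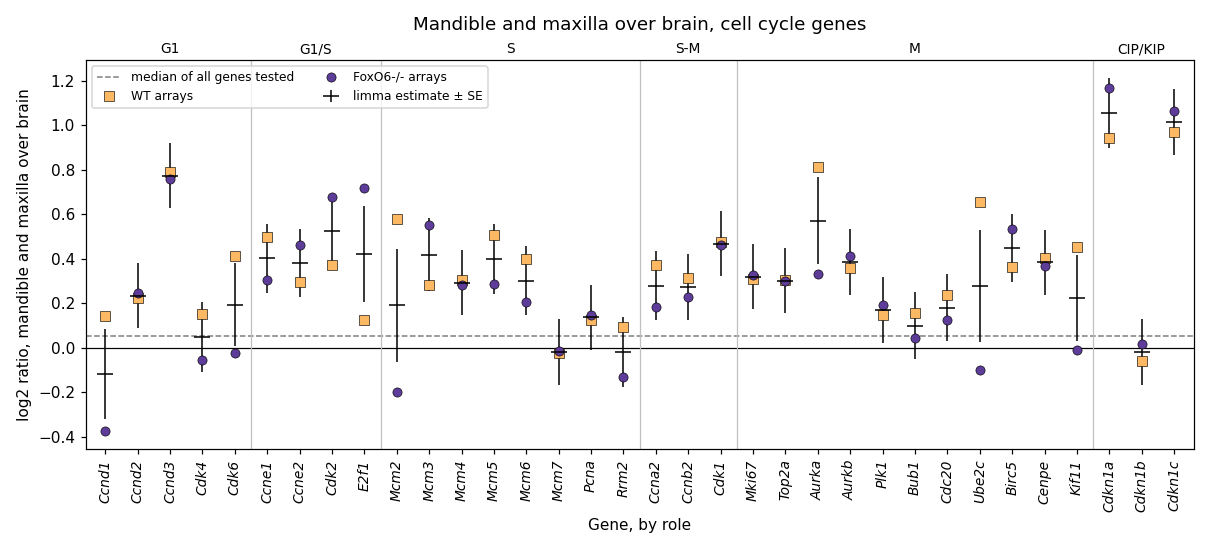
log2 ratio of mandible and maxilla over brain for the 34 genes, with the WT pair of arrays as squares, the FoxO6-/- pair as circles, and the limma estimate ± SE as bars. The dashed line is the median of all genes, 0.05. Cdkn1a, Cdkn1c and Ccnd3 stand highest with both genotypes close together, and the pairs lie far apart for Mcm2, Ube2c and E2f1.

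The tissue difference was read in each genotype separately, without a test. Between the WT arrays 32 of the 34 genes (94.1%, against 54.4% of all genes) were higher in mandible and maxilla, with a median log2 ratio of 0.34, and 0 passed 2-fold, against 18.2% of all genes. Between the FoxO6-/- arrays 26 (76.5%, against 54.2%) were higher, with a median of 0.26, and 2 passed 2-fold (Cdkn1a at 1.17 and Cdkn1c at 1.06), against 19.7%. The 2 genotypes put 26 of the 34 genes on the same side of 0, against 75.8% of all genes, so that this share was near the background. The 8 genes below 0 between the FoxO6-/- arrays were Ccnd1 (-0.37), Mcm2 (-0.20), Rrm2 (-0.13), Ube2c (-0.10), Cdk4 (-0.05), Cdk6 (-0.02), Mcm7 (-0.01) and Kif11 (-0.01). Across the 34 genes the WT and FoxO6-/- ratios had a Pearson r of 0.55 and a Spearman rho of 0.37, against 0.86 and 0.72 across all genes. The points share their arrays, and genes are not independent.

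In mandible and maxilla the array of FoxO6-/- mice had cell cycle signals close to those of the WT array. None of the 34 genes differed by 2-fold, against 2.28% of all genes, and 32 of the 34 lay within 0.5 of 0 on the log2 scale, against 85.8% of all genes. With 15 genes above 0 (44.1%, against 48.7% of all genes) and 19 below, the median log2 ratio of FoxO6-/- over WT was -0.03, against -0.01 for all genes. After median centring of the arrays both medians turned positive, to 0.10 and 0.12, and 26 genes lay above 0. The median by role was -0.07 for D-type cyclins and kinases, 0.13 for G1/S genes, 0.03 for replication, -0.16 for S to M genes, -0.05 for mitosis and 0.12 for CIP/KIP inhibitors. Mki67 had 0.02, Cdk1 0.05 and Top2a 0.14, and Pcna had 0.26.

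Among the brightest probe sets of each gene, the largest ratios between the mandible and maxilla arrays were those of E2f1 and Ube2c. E2f1 had 330.3 on the FoxO6-/- array and 206 on the WT array, a log2 ratio of 0.68, and its other probe set gave 0.34. Ube2c had 1818 against 2724, a ratio of -0.58, from the single probe set that names it. Cdk6 followed with -0.46 (879.6 on the FoxO6-/- array and 1209.55 on the WT array), and its other probe set at or above the floor gave -0.06. Kif11 had -0.33 with 0.01 from its other probe set at or above the floor, Mcm2 had -0.32 with 0.04, and Ccnb2 had -0.30 from a single probe set. So among probe sets at or above the floor, E2f1 was the only one of these 6 genes with a further ratio of over 0.1 on the same side. Under the floor a further probe set gave -0.16 for Cdk6 and -0.18 for Kif11. For E2f1 such a probe set gave -1.64 (5.2 against 16.2), on the side opposite to its brighter ones. Probe sets other than the brightest gave -0.79 for Mcm4 (2425 against 4197) and -0.76 for Cenpe (336 against 568). The brightest probe sets of these genes gave 0.09 and -0.06. Ccnd1 was close to 0 in all 3 probe sets, at -0.07, -0.01 and 0.02. Ccnd3 had -0.03 and Ccnd2 0.19, with the other Ccnd2 probe sets on both sides of 0, down to -1.33 for a dim one (88.1 against 221). The inhibitors had 0.12 for Cdkn1a, 0.17 for Cdkn1b and 0.03 for Cdkn1c. Markers of other cell types differed between the same arrays: FoxO6-/- over WT was above 0 for 0 of 7 cartilage (median -0.74) and 0 of 9 neuron markers (-0.85), and for 4 of 4 enamel (0.98) and 5 of 5 stratified epithelium markers (0.46). These and the higher 3' over 5' ratio of the FoxO6-/- array belong beside all of these values, and their part in them was not tested.

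In brain too the signals of cell cycle genes were close between the genotypes. All 34 genes lay within 0.5 of 0, against 86.4% of all genes, and 0 differed by 2-fold, against 3.16%. The log2 ratio was above 0 for 23 of the 34 (67.6%, against 57.3% of all genes), with a median of 0.09 against 0.05 for all genes. With gene-specific probe sets both medians were 0.05, and after median centring they were 0.24 and 0.20. The replication genes were above 0 in 7 of 8 cases, with a median of 0.14, and Mcm2 had the highest ratio of the 34 genes, 0.45 from 942 against 687. Its other probe set gave -0.03. Ccnd1 followed with 0.45 (4887 against 3583), and its further probe sets gave 0.59 and 0.18, so that all 3 lay on the same side. Aurka had 0.32 and Pcna 0.24. Below 0 stood Cdk2 (-0.34), Ccnb2 (-0.22), Aurkb (-0.18), Birc5 (-0.17), and the inhibitors Cdkn1a (-0.11) and Cdkn1c (-0.07), whereas Cdkn1b had 0.09. Mki67 and Ccnd3 were nearly equal on the 2 brain arrays, with 0.0039 and -0.0017. Markers of other cell types differed between the same brain arrays: FoxO6-/- over WT was above 0 for 7 of 7 cartilage (median 0.81), 10 of 10 neuron (0.37) and 5 of 5 stratified epithelium markers (0.47), and for 0 of 6 skeletal muscle markers (-0.27). Their part in these values was not tested.

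**Figure D4:**
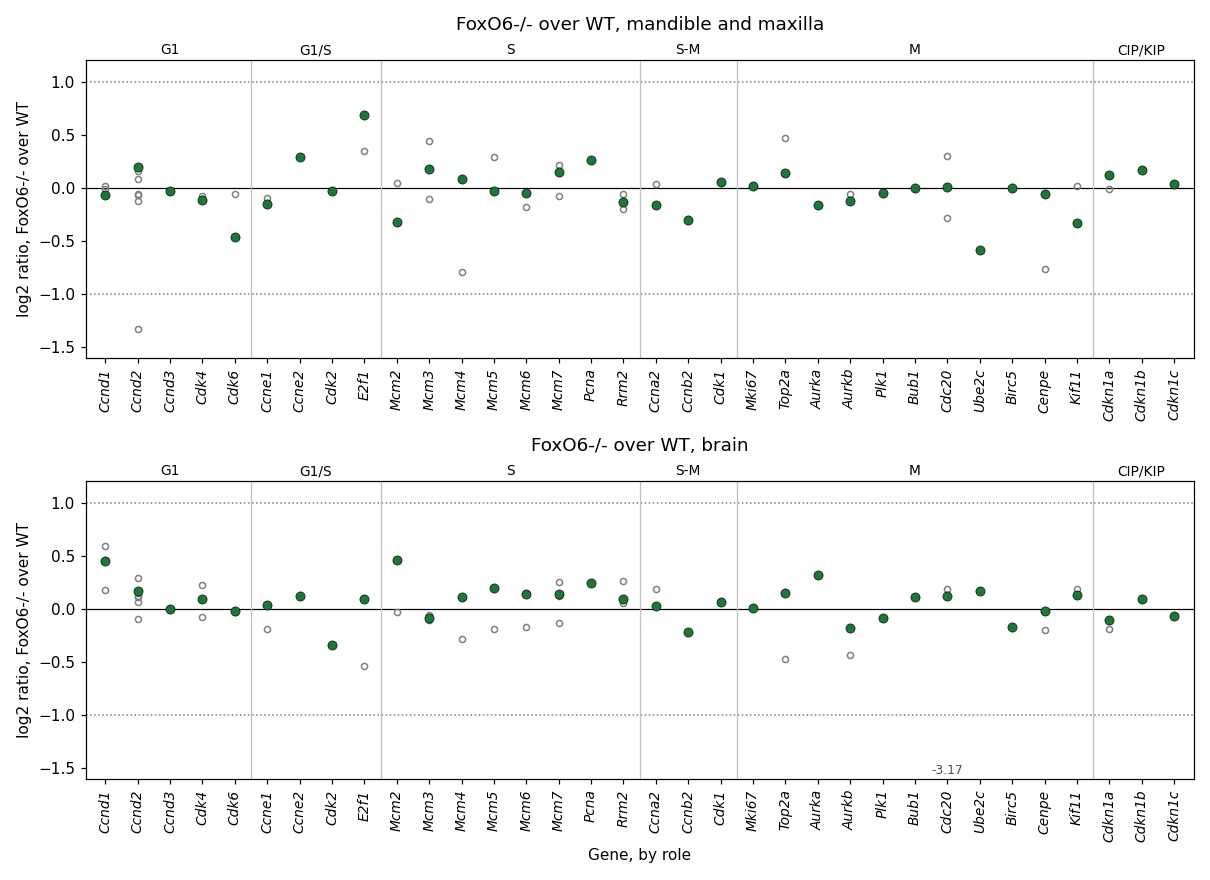
log2 ratio of FoxO6-/- over WT in mandible and maxilla (top) and brain (bottom), with filled points for the brightest probe set of each gene, open circles for its other probe sets at or above the floor, and dotted lines at 2-fold. All filled points lie between the dotted lines, from -0.58 to 0.68 above and from -0.34 to 0.45 below; a dim Cdc20 probe set at -3.17 in brain is written at the lower edge.

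Over both tissues no gene passed the limma test for genotype. The count was 0 of 12569 (0%) at an adjusted p under 0.05 and 588 (4.68%) at an unadjusted p under 0.05, none of them among the 34 genes, whose lowest unadjusted p was 0.161 for E2f1. FoxO6-/- over WT had the same side of 0 in both tissues for 20 of the 34 genes, 12 higher and 8 lower, against 52.7% of all genes. Across the 34 genes the ratios in mandible and maxilla and in brain had a Pearson r of -0.01 and a Spearman rho of 0.02, against -0.09 and 0.05 across all genes. Of the genes higher in both tissues Pcna had 0.26 in mandible and maxilla and 0.24 in brain, and Ccnd2 had 0.19 and 0.17. Of those lower in both, Ccnb2 had -0.30 and -0.22.

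Probe sets of a gene read the same RNA on the same array. Their spread shows differences between probes, not between arrays or animals. Of the 34 genes 20 have several probe sets at or above the floor. For these the difference between the 2 brightest probe sets had an SD of 0.32 for the tissue estimate, 0.34 for the genotype ratio in mandible and maxilla and 0.22 for that in brain, so that most genotype ratios above are no larger than this spread. All probe sets lay on the same side of 0 for 17 of the 20 genes in the tissue comparison, 16 of them higher in mandible and maxilla and Ccnd1 lower. The count was 9 of 20 for genotype in mandible and maxilla (2 higher, 7 lower) and 9 of 20 in brain (4 higher, 5 lower). Of the 34 probe sets used 20 are specific to 1 gene by their name, and 5, 3 and 6 carry the suffixes a, s and x of the array design, which mark probes shared by transcripts or similar sequences.

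Wider lists of cell cycle genes were read the same way. Of 131 further genes in 11 lists 128 are named on the array and 122 were tested. Of these, 102 lay above 0 (83.6%, against 54.7% of all genes) in mandible and maxilla over brain, with a median of 0.23. The test by limma was passed by 0, against 15.2% of all genes, with 20 at an unadjusted p under 0.05, against 33.7%. No overlap with mandible and maxilla higher was found for 75 (61.5%, against 36.4%) and with brain higher for 8, against 29.1% of all genes. All 7 checkpoint kinase and CDC25 genes lay above 0 (median 0.46), as did 11 of 11 RB and E2F genes (0.29), 12 of 12 condensin and cohesin genes (0.23) and 16 of 17 kinetochore and spindle checkpoint genes (0.32). For origin licensing the count was 12 of 16 (0.16), for polymerases and the fork 14 of 19 (0.17), for nucleotide synthesis 4 of 6 (0.13), for spindle motors and cytokinesis 15 of 18 (0.28) and for DREAM and FOXM1 regulators 4 of 6 (0.11). Genes of the p53 response, the pathway upstream of Cdkn1a, were above 0 in 5 of 7 cases (0.37), with Bbc3 (-0.82) and Mdm2 (-0.26) below 0. The INK4 inhibitors, which block CDK4 and CDK6, had no common direction, with 0.03 for Cdkn2c and -0.36 for Cdkn2d. Cdkn2b had 222 and 178 in FoxO6-/- and WT mandible and maxilla and 43.2 and 86.0 in FoxO6-/- and WT brain, both brain signals under the floor, so that its difference has only a lower limit and its place among the genes tested came from the mandible and maxilla arrays. The lowest adjusted p of the 122 genes was 0.0725, for the cytokinesis kinase gene Cit (-0.69 ± 0.15).

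**Figure D5:**
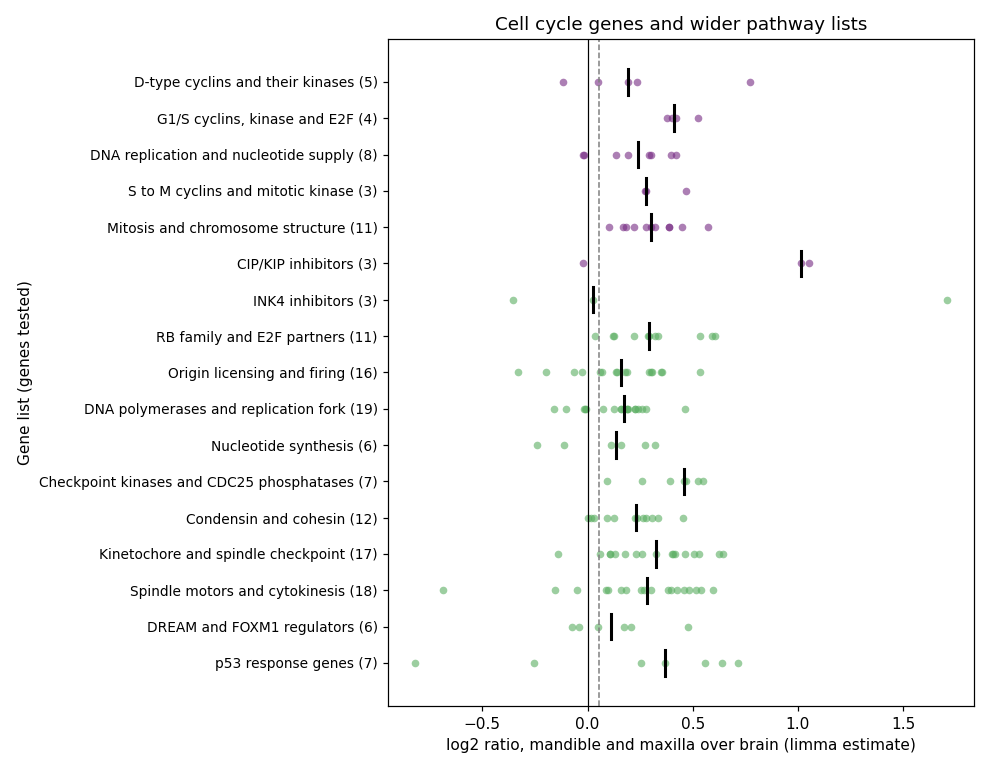
limma estimate of the log2 ratio of mandible and maxilla over brain for each gene of 6 member lists (purple) and 11 wider lists (green), with the number of genes tested in brackets and a black bar at each median. The dashed line is the median of all genes, 0.05. All list medians but that of the INK4 inhibitors (0.03) lie to the right of it, and the CIP/KIP bar stands farthest right at 1.02. The INK4 point at 1.71 is Cdkn2b, whose brain signals lie under the floor.

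Between genotypes the wider lists had a median log2 ratio of -0.04 in mandible and maxilla, with 52 of 122 genes above 0 (42.6%, against 48.7% of all genes), and of 0.01 in brain, with 61 of 120 (50.8%, against 57.3%). Pold3, which encodes a subunit of DNA polymerase delta, was the single gene of these lists past 2-fold in either tissue. Its signals were 346 on the FoxO6-/- and 1116 on the WT mandible and maxilla array and 287 and 1029 on the brain arrays, ratios of -1.69 and -1.84 from its brightest probe set. Foxm1, the activator of mitotic genes, had 0.57 and -0.59 in the 2 tissues. It was picked here because of these values.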

How the data were processed

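Total RNA of the 2 tissues and 2 genotypes was hybridised to 4 arrays of 45101 probe sets, and groups were taken from the labels. The authors normalized the arrays with MAS5 (version not given in the sources used here), and deposited 1 intensity for each probe set, a linear MAS5 signal, with a trimmed mean of 500.0 on each array (2% left out at each end). No further normalization was applied. The authors' methods name limma for differential expression.

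Names of probe sets came from the platform table: 64 are controls, 34945 have 1 gene, 932 have several and 9160 are unnamed. Entrez IDs of 34754 matched the RefSeq table of GRCm38.p6, and 0 symbols changed. Log2 signals of 12569 genes with a mean signal of at least 101 were fitted in limma with tissue and genotype as terms (1 residual degree of freedom, two-sided p, Benjamini-Hochberg adjustment). The fit takes the tissue difference as equal in both genotypes. Each SE is the moderated one of limma, with 2.40 prior degrees of freedom drawn from all genes tested. Ratios of single arrays entered where the mean of the compared signals reached the floor, and 2-fold changes were counted without a test. Nothing was imputed.

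The members, lists and tests were chosen with earlier results of these data known. All members were named or counted. Genes of the wider and marker lists were to be named only where past the test (the 2 highest and 2 lowest) or where a count of 5 or fewer needs a name. Alternatives were median centring, quantile normalization, a higher floor (524, the 75th percentile), no floor, low signals set to the floor, averages over the probe sets of a gene, gene-specific probe sets, no genotype term, a variance trend, and leaving out each array with tissue as the only term. The erythroid, macrophage, endothelium, radial glia and cerebellar granule precursor marker lists were read too: their median log2 differences of mandible and maxilla over brain were -0.25, 0.24, 0.19, -4.17 and, for Zic1 alone, -4.56. Scripts were tested on simulated data. Computation used Python 3.11.15 with numpy 2.4.6, pandas 2.3.3, matplotlib 3.10.9, R 4.3.3 and limma 3.58.1.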

Additional observations from a re-analysis of the deposited data

Results flagged for a closer look

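For 3 of the 34 genes the FoxO6-/- over WT log2 ratio lay on opposite sides of 0 in the 2 tissues and differed by at least 0.5. The ratio in mandible and maxilla minus that in brain was -0.52 for Ccnd1 (-0.07 and 0.45), -0.77 for Mcm2 (-0.32 and 0.45) and -0.75 for Ube2c (-0.58 and 0.17). With 1 array per group these differences were not tested. The other probe sets of Ccnd1 gave -0.01 and 0.02 in mandible and maxilla against 0.59 and 0.18 in brain. For Mcm2 the other probe set gave 0.04 and -0.03, and Ube2c has a single one.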

How the results depend on the processing

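With 1 array per group, the tissue test rests on 1 residual degree of freedom and its calls moved with the setting. Where an array was left out, tissue was the only term, so that 2 choices changed together, and the lone array of its tissue was taken to vary like the others. The count of genes past the test was 1911 of 12569, with 0 of 18193 without a floor (3824 at an unadjusted p under 0.05), 1125 with the mean of all probe sets, 2916 with a variance trend, 2707 without the genotype term, 2733 with low signals raised to the floor, 2061 after quantile normalization and 1493 to 2012 when each array was left out in turn. Of the members 2 passed, against 0 without a floor, 0 with the mean of all probe sets, 4 with a variance trend, and 0 to 2 with an array left out (0 without the FoxO6-/- brain array). Adjusted p of Cdkn1a ranged from 0.00668 to 0.170, and without a floor that of Cdkn1c was 0.165. The median of the members fell from 0.30 to 0.18 after median centring, which moved the median of all genes from 0.05 to -0.07, and their difference stayed at 0.24. With an array left out the median was 0.25 to 0.35. Median centring moved the share of higher calls between genotypes past 2-fold from 25.9% to 48.8% in mandible and maxilla and from 35.7% to 54.2% in brain, and quantile normalization moved the first to 44.2%.

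Some tissue estimates changed sign: Cdk4 (-0.073) and Bub1 (-0.022) after median centring; Mcm6 (-0.44), Mcm7 (0.083), Rrm2 (0.062) and Cdkn1b (0.18) with the mean of all probe sets, where Mcm6 has a probe set under the floor; E2f1 (-0.12) and Rrm2 (0.055) with gene-specific probe sets. With an array left out the estimates that changed sign ranged from -0.34 to 0.11 for Ccnd1, -0.0070 to 0.10 for Cdk4, -0.036 to 0.42 for Cdk6, -0.037 to 0.42 for Mcm2, -0.095 to 0.057 for Mcm7, -0.085 to 0.045 for Rrm2, -0.015 to 0.57 for Ube2c and -0.10 to 0.064 for Cdkn1b. Of all alternative tissue estimates of single members, 400 kept direction and call and 19 changed sign.

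Without a floor 2847 genes passed 2-fold between genotypes in mandible and maxilla and 2829 in brain, against 278 and 389, and 69 and 146 did with a floor at the 75th percentile. With the mean of all probe sets 1 member passed 2-fold in mandible and maxilla, Mcm6 at 1.76, which has a probe set under the floor. The member median in mandible and maxilla was 0.10 after median centring, and in brain it was 0.24 after median centring, 0.031 with the mean of all probe sets and 0.051 with gene-specific ones. Other causes were not tested. The labels carry no replicate numbers, so no replicate block was fitted. The genotype term of the tissue fit compares the tissues within each genotype. E2f1, Foxm1 and the dim probe sets of Ccnd2 and Cdc20 have signals nearer to the floor of 101 than most values given here.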
